A study of Mus musculus with 4 samples.

Results

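The 10 genes described here mark or drive the fat, bone, cartilage and muscle fates open to C3H10T1/2, a mouse embryo fibroblast line: Pparg, Cebpa, Fabp4 and Lpl for fat, Runx2, Sp7 and Alpl for bone, Sox9 and Comp for cartilage, and Myod1 for muscle. They were chosen by name, with earlier results of these data known, so their counts beside those of all probes are a description only. Every probe outside the control spots that carries one of these names in the array design was taken. Of the 10 names, 9 were found, on 18 of 61307 probes and among 29353 gene names. The design lists Alpl under the older name Akp2, and its 1 probe was matched through its RefSeq accession, which made 19 probes for the 10 genes.

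Total RNA was measured on 4 one-colour arrays, 2 of cells exposed to 2 mM phorone and 2 of unexposed control cells. All the cells were C3H10T1/2 that had been transformed chemically: 3-methylcholanthrene at 2.5 µg/ml for 2 days, a pause of 4 days, the phorbol ester TPA at 100 ng/ml over 2 weeks, and 4 weeks in normal medium, after which foci had formed. Phorone is an unsaturated ketone that reacts with glutathione and depletes it. The sources used here give neither a vehicle nor how long phorone was applied, the labels do not call the cells a clone, and cells that were never transformed were not analysed here. Whether arrays of 1 group represent distinct cultures is not said in the labels, and the spread that p-values rest on, that between these arrays, may therefore be technical. In RNA from a whole culture, fewer cells of a type and less RNA per cell cannot be told apart.

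C3H10T1/2 cells are known for turning into muscle, fat or cartilage cells after treatment with azacytidine, and the muscle regulator MYOD1 was found through that conversion. Each fate has its own regulators: PPARG and C/EBP-alpha start and hold the fat programme, RUNX2 and then SP7 (osterix) the bone programme, SOX9 the cartilage programme and MYOD1 the muscle programme. The other members are products of the differentiated cells, with Fabp4 carrying fatty acids inside adipocytes, Lpl releasing them from lipoproteins, Alpl (alkaline phosphatase) clearing an inhibitor of mineral, and Comp linking collagen in cartilage and tendon matrix.

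Between 51.1% and 52.2% of the spots were well above background on the phorone arrays, against 52.3% and 52.7% on the control arrays, and no spot was saturated. All 4 arrays lay on 1 slide but each group had its own row, and the effects of row and of phorone cannot be told apart. Values are log2 signals relative to the array's own 75th percentile, so that 0 is a probe as bright as the 75th percentile, and levels of different probes are not compared. A probe was tested if both arrays of at least 1 group were well above background, and a change was called at a limma adjusted p (Benjamini-Hochberg) below 0.05. The number of arrays, 2 in each group, limits the precision of every value.

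The cartilage regulator Sox9, the cartilage matrix gene Comp and the bone enzyme Alpl were far lower in phorone cells, with log2 fold changes (phorone minus control) of -2.38 and -2.66 on the tested Sox9 probes and -3.20 for Comp, while Alpl was at least 5.90-fold lower. Lpl, Runx2 and Fabp4 fell by less, with values between -0.92 and -0.65 on the probes called. The fat regulators Pparg and Cebpa were not called, and the probes of Sp7 and Myod1 were not well above background on any of the 4 arrays. Of the 13 probes tested under their gene's own name, 9 were called lower and 0 higher, and the Alpl probe made it 10 of 14. Over all 31905 tested probes, 17.0% were called lower and 20.9% higher, or 37.9% in either direction. Fewer of the 9 lower lineage probes were called whichever array was left out. Fewer of all tested probes were called lower in those settings as well. The median log2 fold change of the 13 probes was -0.70, beside 0.09 for all tested probes. Comp and Alpl passed the filter only through the control arrays, where they were brighter, so their place among the lower probes is a description only, and without them 8 of 12 were lower.

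How the arrays are scaled bears on the smaller changes. The arrays were also scaled to 7 spike-in RNAs in place of the 75th percentile. Every fold change then rose by 0.43 and the median of all tested probes stood at 0.53. Of the 13 probes only those of Sox9 and Comp, 3 in all, were called lower, beside 5.57% of all tested probes. The spike-in signal lay 2.74 and 2.55 above the 75th percentile on the phorone arrays and 2.76 and 3.41 above it on the control arrays, so control replicate 2 stood apart. Without control replicate 2, spike-in scaling gave a median of 0.20 and the same number of the 13 lower, 3, and without control replicate 1 it gave 0.79, 3 lower and 1 higher. A difference from the median of all tested probes is the same under either scaling. It was -2.48 and -2.75 for Sox9, -0.92 and -1.01 for Lpl. The called probes gave -0.78 and -0.86 for Runx2 and -0.74 and -0.79 for Fabp4. Probes not called gave -0.27 for Pparg, -0.29 for Cebpa, -0.71 for Fabp4 P336833 and 0.012 for Runx2 P460545. These values place a probe relative to the median probe, and which scaling is right was not tested.

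**Figure D1:**
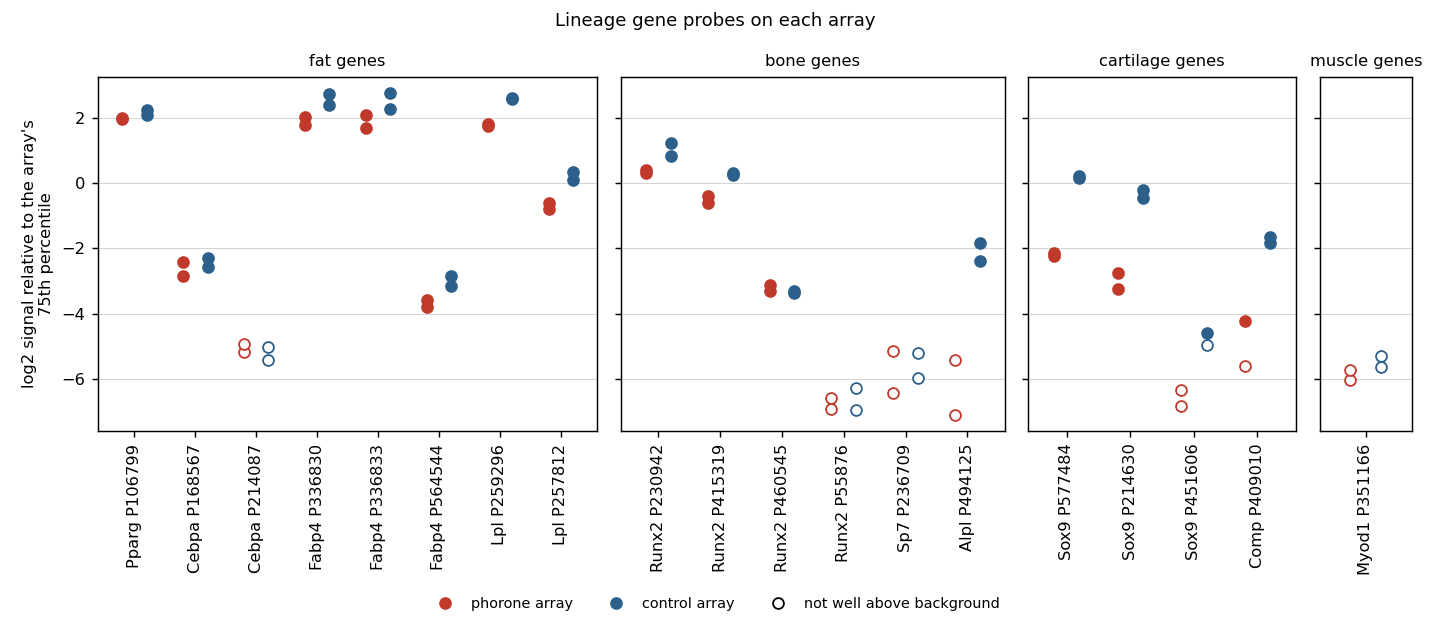
Log2 signal relative to the array's 75th percentile (vertical axis) for each of the 19 probes, grouped by lineage, with 1 point for each array, phorone left of control. Open points were not well above background. Both tested Sox9 probes, Comp and Alpl show wide gaps between the groups, whereas the probes of Sp7 and Myod1 lie among the dim values in both.

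In the fat group, the regulators Pparg and Cebpa were not called, while both probes of Lpl and 2 of the 3 probes of Fabp4 were called lower. Pparg, the nuclear receptor that directs fat cell formation, had 1.99 and 2.00 in phorone cells, against 2.24 and 2.09 in control cells. The phorone arrays lay below the control arrays by little more than the spread between controls, and the difference was -0.17 (SE 0.13, limma adjusted p = 0.353). Under spike-in scaling the value turned positive, at 0.26 (SE 0.46). The design lists 2 transcript records for this probe. Whether it separates the forms of the receptor, one of which is made mainly in fat cells, was not determined. Cebpa, the partner that sustains Pparg expression in fat cells, had -2.84 and -2.41 in phorone cells, against -2.57 and -2.29 in control cells, and the groups overlapped. The difference was -0.20 (SE 0.20, limma adjusted p = 0.480), and stood at 0.015 without phorone replicate 1 and at 0.24 under spike-in scaling. The other Cebpa probe was not well above background on any array.

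Fabp4, the adipocyte fatty acid carrier, has 3 probes. On probe P336830 it had 1.80 and 2.03 in phorone cells, against 2.73 and 2.40 in control cells. On probe P336833 the values were 1.70 and 2.10 in phorone cells, against 2.77 and 2.28 in control cells. On the dimmer probe P564544 they were -3.79 and -3.59 in phorone cells, against -2.84 and -3.14 in control cells. All 3 probes had both phorone arrays below both control arrays, as did 31.5% of all tested probes, whereas in 42.7% both phorone arrays lay above both control arrays. The log2 fold changes were close to each other, at -0.65 (SE 0.18), -0.62 (SE 0.24) and -0.70 (SE 0.17), with limma adjusted p of 0.0452, 0.0978 and 0.0314, so that P336833 was not called. The call on P336830 was lost without control replicate 1 (-0.48), control replicate 2 (-0.82), phorone replicate 1 (-0.53) or phorone replicate 2 (-0.77), and that on P564544 without control replicate 1 (-0.54), phorone replicate 1 (-0.60) or phorone replicate 2 (-0.80). With normexp background correction P564544 stood at -0.15 and was not called, while P336833 was, at -0.60.

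Lpl, the lipase that frees fatty acids from circulating lipoproteins, was read by 2 probes, which share no more than 2 bases end to end. They are printed here because they read the same change from separate stretches, 5′ to 3′, with the hexamer AATAAA in capitals where it occurs. AATAAA is the hexamer of the poly(A) signal, but the probes' positions in their transcripts were not determined, so no poly(A) signal is claimed. The hexamer was searched on both strands. It stands on the printed strand of 7.50% of all 40628 gene probes and on the opposite strand of 3.55%.
Lpl P259296: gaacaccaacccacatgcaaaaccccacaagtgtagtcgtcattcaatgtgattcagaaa
Lpl P257812: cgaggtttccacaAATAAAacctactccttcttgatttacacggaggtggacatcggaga
On P259296, Lpl had 1.76 and 1.81 in phorone cells, against 2.63 and 2.59 in control cells. On P257812 it had -0.80 and -0.60 in phorone cells, against 0.33 and 0.11 in control cells. The groups were well apart on both probes, with log2 fold changes of -0.83 (SE 0.13, limma adjusted p = 0.00901) and -0.92 (SE 0.16, limma adjusted p = 0.0121). Neither was called under spike-in scaling (-0.39 and -0.49) or without phorone replicate 1 (-0.80 and -0.82), and P259296 was not called without phorone replicate 2 (-0.85).

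In the bone group, Runx2, the factor that commits cells to the osteoblast line, has 4 probes, and they did not all move alike. Their sequences are printed because the value depends on which is read.
Runx2 P230942: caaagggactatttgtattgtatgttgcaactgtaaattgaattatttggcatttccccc
Runx2 P415319: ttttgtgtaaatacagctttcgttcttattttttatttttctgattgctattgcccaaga
Runx2 P460545: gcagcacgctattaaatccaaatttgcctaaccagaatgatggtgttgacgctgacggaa
Runx2 P55876: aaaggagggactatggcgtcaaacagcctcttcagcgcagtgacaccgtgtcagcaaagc
On P230942, Runx2 had 0.31 and 0.42 in phorone cells, against 1.24 and 0.85 in control cells, and on P415319 it had -0.59 and -0.38 in phorone cells, against 0.31 and 0.25 in control cells. Both were called lower, with log2 fold changes of -0.68 (SE 0.18, limma adjusted p = 0.0382) and -0.77 (SE 0.14, limma adjusted p = 0.0153). On P460545, Runx2 had -3.31 and -3.13 in phorone cells, against -3.36 and -3.29 in control cells. The design lists 3 transcript records for each of these probes, but whether they are the same records was not determined. On P460545 the groups overlapped and the difference was 0.11 (SE 0.14, limma adjusted p = 0.582). P55876, with 2 transcript records listed, was not well above background on any array.

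The Runx2 calls did not hold under every setting. P230942 was not called without control replicate 1 (-0.49), phorone replicate 1 (-0.63) or phorone replicate 2 (-0.73), nor P415319 without control replicate 1 (-0.74), phorone replicate 1 (-0.66) or phorone replicate 2 (-0.88). Under spike-in scaling they stood at -0.25 and -0.33 and were not called, and without control replicate 1 that scaling gave 0.27 and 0.023.

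Sp7, which acts after Runx2 in osteoblasts, had a processed signal of 6.43 and 15.9 in phorone cells, against 11.2 and 20.2 in control cells, where the 75th percentile was 563 to 747. Its 1 probe was not well above background on any array, so no change is given.

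Alpl, the tissue-nonspecific alkaline phosphatase that is used as a stain for bone-forming cells, fell below detection in phorone cells. Its probe, shown because it is the only one for the gene, holds an AATAAA hexamer in capitals.
Alpl P494125: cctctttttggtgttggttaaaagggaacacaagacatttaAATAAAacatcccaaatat
It had -7.11 and -5.41 in phorone cells, neither well above background, against -1.84 and -2.38 in control cells, both well above it. Against the lowest signal counted as above background on the phorone arrays, Alpl was at least 5.90-fold lower (limma adjusted p = 0.00731). With normexp correction and an offset of 50, the fitted value was -1.44, smaller than this bound. The probe was tested only because the control arrays were bright, so its call is a description.

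**Figure D2:**
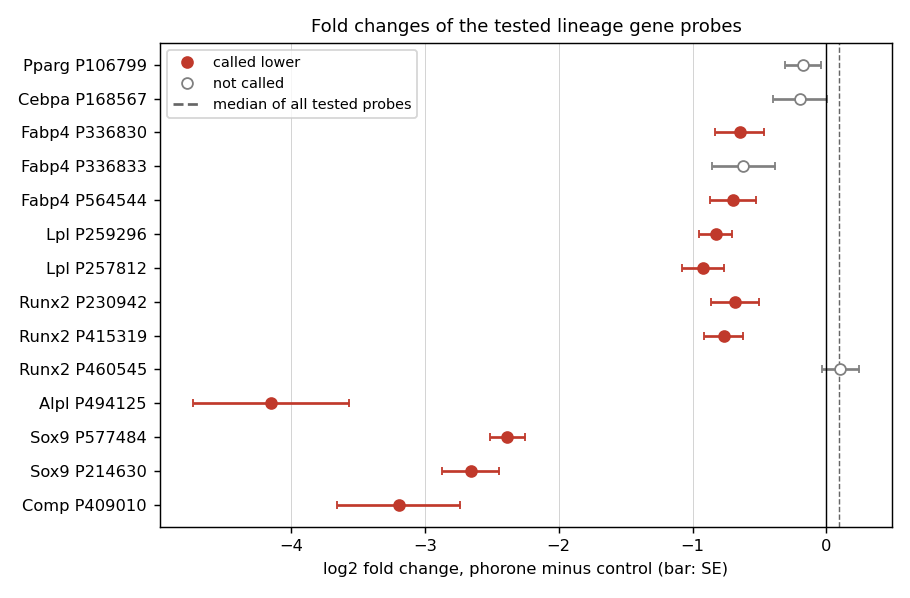
Log2 fold change, phorone minus control, of the 14 tested probes (horizontal axis, bars are SE of the limma fit, n = 2 arrays each), with the median of all 31905 tested probes as a dashed line. Alpl, Comp and the Sox9 probes lie at or beyond -2.38, and the probes of Lpl, Fabp4 and Runx2 lie between -0.92 and -0.62, except Runx2 P460545 at 0.11. The Alpl value is a fit to signals that were not well above background in phorone cells.

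In the cartilage group, Sox9, the factor without which cartilage does not form and which acts on collagen II and collagen XI genes, has 3 probes with no bases shared end to end. They are shown because 2 of them carry the largest changes measured above background on all 4 arrays among the members, and the remaining one was too dim to test.
Sox9 P577484: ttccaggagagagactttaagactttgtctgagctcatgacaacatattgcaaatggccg
Sox9 P214630: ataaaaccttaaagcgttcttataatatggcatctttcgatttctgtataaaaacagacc
Sox9 P451606: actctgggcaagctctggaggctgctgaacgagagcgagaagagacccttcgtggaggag
On P577484, Sox9 had -2.23 and -2.13 in phorone cells, against 0.24 and 0.17 in control cells. On P214630 it had -2.76 and -3.23 in phorone cells, against -0.22 and -0.46 in control cells. On both probes the gap between the groups was many times the spread within them, with log2 fold changes of -2.38 (SE 0.13, limma adjusted p = 0.000961) and -2.66 (SE 0.21, limma adjusted p = 0.00195), or 5.22-fold and 6.31-fold lower. P451606 had -6.36 and -6.84 in phorone cells, against -4.58 and -4.98 in control cells, but only control replicate 1 was well above background, so it was not tested. P577484 and P214630 were called lower under all alternatives that tested them, 15 and 14 in number, between -2.43 and -1.59 and between -2.90 and -1.78.

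Comp, a matrix protein of cartilage and tendon, had -5.62 and -4.24 in phorone cells, of which only replicate 2 was well above background, against -1.83 and -1.64 in control cells. Its only probe was the following.
Comp P409010: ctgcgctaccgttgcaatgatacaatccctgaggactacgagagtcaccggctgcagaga
The groups were far apart although the phorone arrays differed from each other (SD 0.98, against 0.14 between controls). The difference was -3.20 on the log2 scale (SE 0.46, limma adjusted p = 0.00788), and it stood at -2.51 with phorone replicate 1 left out and at -1.39 after normexp correction. Phorone replicate 1 was not well above background, and its dim value enters both the SD and the difference of -3.20. With phorone replicate 2 left out, the change was -3.89 and rests on that dim value alone.

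Myod1, the regulator that converts fibroblasts into myoblasts, was read by 1 probe that was not well above background on any array, with processed signals of 8.61 and 10.8 in phorone cells, against 17.7 and 15.1 in control cells. A change in Myod1 was not detectable at these signals.

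Further genes of the 4 programmes were taken from lists that leave out the 10 members, each gene on its brightest tested probe. The lists, too, were chosen with earlier results of these data known. Over all 17033 genes tested in this way, 19.7% were called lower and 21.7% higher, with a median log2 fold change of 0.08. In either direction 41.4% were called. Genes such as Klf15, Slc2a4, Bglap, Pth1r, Phex, Scrg1, Tnnt1 and Myh7 passed the filter only through 1 group, so their calls are a description. With all 4 arrays above background, 9 of 21 fat, 10 of 20 bone, 6 of 11 cartilage and 8 of 17 muscle genes were lower. Those higher numbered 2, 1, 1 and 4, and 17.0% of all probes tested in that way were lower. In each list more genes were called lower than higher, except under spike-in scaling without control replicate 1, where 6 fat genes were higher and 4 lower, 6 cartilage genes were higher and 5 lower, and 6 muscle genes were higher and 6 lower.

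Of 36 fat genes, 23 were tested, of which 10 were lower and 1 higher, with a median of -0.31 (-0.31 with genes dim in 1 group at their bound). The mature adipocyte genes Plin1, Adipoq, Lep, Retn, Cfd, Cd36, Cidec, Cidea, Ucp1 and Aqp7 were not well above background on both arrays of either group. Cebpd, an early factor that acts before Pparg, had 3.85 and 3.88 in phorone cells, against 6.20 and 5.98 in control cells (-2.22, SE 0.14). Klf15, a factor of later adipogenesis, had -4.36 and -4.95 in phorone cells, against -0.50 and -1.03 in control cells (-3.89), with only replicate 1 of the phorone arrays well above background. The lipid droplet coat gene Plin4 (-2.61) and the fatty acid carrier Fabp5 (-1.65) fell, and Slc2a4, the insulin-dependent glucose carrier, was at least 1.48-fold lower. Pnpla2, the lipase that starts triglyceride breakdown, was the gene called higher on its brightest probe, by 0.94 (SE 0.13). Among genes not called on that probe, Dgat2 (0.67), Acsl1 (0.86) and Gata2 (0.55) were called higher on another probe. Klf2 was called lower on another (-1.38). Cebpb, an early partner of Cebpd, had 2.37 and 2.58 in phorone cells, against 2.52 and 2.57 in control cells, with a log2 fold change of -0.07 (limma adjusted p = 0.718). Rxra, which pairs with PPARG on DNA, was called lower on its brightest probe (-0.62) but another Rxra probe was called higher, by 0.78. Cebpb and Rxra were chosen after their values were seen. Lower fat genes numbered 5 with no filter on dim probes and 5 under spike-in scaling, beside 5.02% and 5.57% of all probes. They were also fewer whichever array was left out, and when replicate number was added to the fit as a block. Under spike-in scaling the median was 0.13. The median was -0.67 without control replicate 1 and -0.20 without phorone replicate 2. Higher fat genes numbered 2 with normexp correction or when all 4 arrays had to be above background. With normexp correction Klf15 stood at -2.21 and Fabp5 at -0.93. Fabp5 was not called without control replicate 1 (-1.45) or control replicate 2 (-1.86), nor Slc2a4 without control replicate 1 (-1.81) or with normexp correction (-0.11). With no filter on dim probes neither was called (limma adjusted p = 0.0842 for Fabp5 and 0.0614 for Slc2a4).

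Of 30 bone genes, 29 had a probe and 23 were tested, of which 12 were lower and 2 higher, with a median of -0.72 (also -0.72 with bounds) of -0.28 under spike-in scaling and of -0.41 with normexp correction. Omd, a proteoglycan of bone matrix, had -2.15 and -2.27 in phorone cells, against 1.87 and 1.48 in control cells (-3.89, SE 0.18). Tnfrsf11b (osteoprotegerin, a decoy that restrains osteoclast formation, -3.17), Postn (a matrix protein of periosteum, -3.06) and Spp1 (osteopontin, -2.87) fell too. Pth1r, the parathyroid hormone receptor, was not well above background in phorone cells and was at least 6.54-fold lower. Among genes not called on their brightest probe, Smad5 was called higher on another probe (0.97) and Col1a1 lower on others (-2.21 and -1.44). Msx2, a homeobox factor, was higher by 0.90, though not called without phorone replicate 2 (0.88), and Phex, a peptidase of osteoblasts and osteocytes, was above background only in phorone cells and at least 2.31-fold higher. Phex was not called with no filter on dim probes (limma adjusted p = 0.0586). With normexp correction Phex stood at 0.83, Pth1r at -1.46 and Tnfrsf11b at -2.51, the values of Phex and Pth1r being smaller than their bounds. Higher bone genes numbered 1 without phorone replicate 2, with no filter on dim probes or when all 4 arrays had to be above background, and 4 under spike-in scaling without control replicate 1.

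Of 28 cartilage genes, 14 were tested, of which 7 were lower and 1 higher, with a median of -0.35 (also -0.35 with bounds) and of 0.08 under spike-in scaling. The median was -0.59 without phorone replicate 2, -0.25 without phorone replicate 1, -0.18 with normexp correction and -0.54 when all 4 arrays had to be above background. The collagen XI chain Col11a1 had -2.32 and -1.96 in phorone cells, against 2.59 and 2.47 in control cells (-4.67, SE 0.17). Col2a1, the main collagen of cartilage, was lower on its brightest probe (-3.08) and on another (-1.09). The matrilins Matn4 (-2.43) and Matn2 (-1.84) fell. Scrg1, a gene expressed in cartilage, was at least 13.7-fold lower, but stood at -2.23 with normexp correction, smaller than this bound. Matn4 stood at -1.19 with that correction. Prg4 (lubricin, the lubricant of joint surfaces) had -0.80 and -0.39 in phorone cells, against -1.74 and -2.03 in control cells, and was called higher, by 1.29 (SE 0.20). Chad (chondroadherin) was well above background only in phorone cells and was not called (0.39, limma adjusted p = 0.0918). Acan, the main proteoglycan of cartilage, and Sox5 and Sox6, the partners of SOX9, were not well above background on both arrays of either group. Higher cartilage genes numbered 2 without control replicate 2, with normexp correction, median scaling, spike-in scaling or the authors' value table.

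Of 41 muscle genes, 21 were tested, of which 9 were lower and 3 higher, with a median of -0.44 (also -0.44 with bounds) and of -0.0027 under spike-in scaling. The other regulators of the muscle programme, Myf5, Myf6, Myog, Pax3 and Pax7, were not well above background on both arrays of either group. The sarcomeric genes Actn3 (-3.09), Actc1 (-2.36) and Acta1 (-2.07) fell, as did Mef2c (-2.05), a factor of muscle and bone that stands in both lists. Tnnt1, a troponin of slow muscle, was at least 16.5-fold lower and Myh7, a myosin of slow muscle, at least 1.48-fold lower. Myh7 was not called under spike-in scaling (-0.94), with no filter on dim probes (limma adjusted p = 0.0540) or with normexp correction (-0.24). With that correction Tnnt1 stood at -2.47, smaller than its bound, Actn3 at -2.35 and Chrnb1 at 1.02, and higher muscle genes numbered 5. Chrnb1, a subunit of the acetylcholine receptor, Mef2d and the troponin Tnnc2 were higher, by 1.97, 1.44 and 1.09. Tnnc2 was not called without control replicate 2 (1.10) or phorone replicate 2 (0.87), nor with no filter on dim probes (limma adjusted p = 0.0561).

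**Figure D3:**
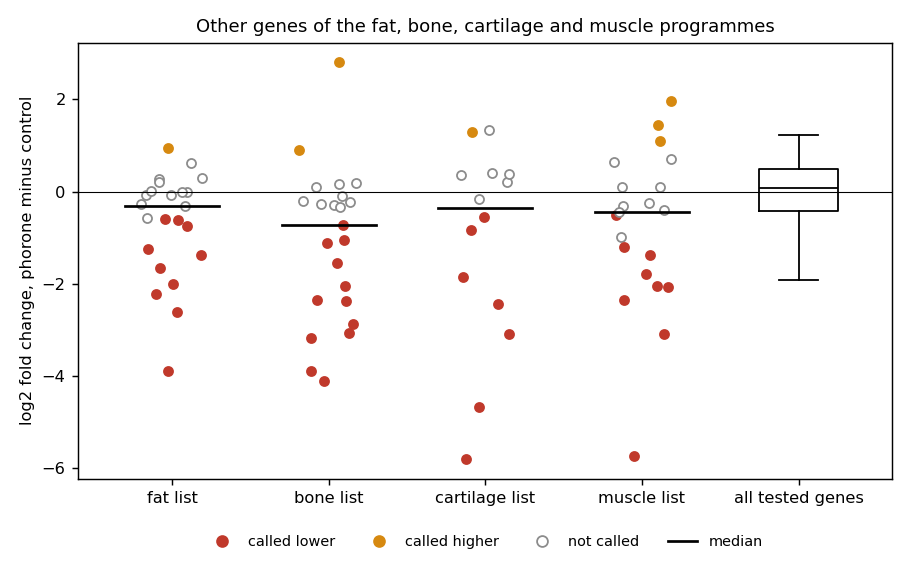
Log2 fold change, phorone minus control (vertical axis), of each tested gene in the fat (23), bone (23), cartilage (14) and muscle (21) lists, with the list's median as a line, beside a box for all 17033 tested genes (quartiles, whiskers at the 5th and 95th percentiles). The medians lie between -0.72 and -0.31, while that of all genes is 0.08, and each list holds genes that were called in both directions.

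The label of the cells was checked against markers. All 13 fibroblast markers were tested, of which 9 were called lower with phorone and 0 higher. Among the lower ones, Fap and Lum passed the filter only through the control arrays, so their calls are a description. They were at least 17.6-fold and 2.04-fold lower. Over all tested genes, 19.7% were lower and 21.7% higher. Vim (vimentin), found throughout mesenchymal cells, had 6.93 and 7.09 in phorone cells, against 7.41 and 7.33 in control cells, and was not called. Thy1, Fn1 and P4hb were not called either. Pdgfra, a growth factor receptor of mesenchymal progenitors, was lower (-2.98). The summed signal of the 13 markers, in units of the array's 75th percentile, was 444 and 471 in phorone cells, against 1127 and 1140 in control cells. S100a4, the largest of the 13 values on every array, weighs most in this sum. On the log2 scale it had 7.37 and 7.41 in phorone cells, against 9.18 and 9.21 in control cells. Of 10 epithelial markers 4 were tested and 0 called, with sums of 0.483 and 0.324 in phorone cells, against 0.246 and 0.330 in control cells, and Epcam, Cdh1 and Krt18 were not well above background in either group. Of 9 leukocyte markers with a probe 6 were tested and 1 was called higher, with sums of 5.52 and 5.62 in phorone cells, against 4.41 and 5.45 in control cells, and the defining marker Ptprc was not well above background. Of 8 endothelial markers only Tek was tested, through the control arrays alone. It was at least 1.68-fold lower, and its call is a description. Of 8 neural markers 4 were tested, with 1 called higher and 1 lower. Their part in the changes of the lineage genes was not tested.

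Genes with the most similar course were sought for each member called on its brightest probe with all 4 arrays above background, as the smallest root mean square difference of the 4 values once each probe's own mean was taken off. Among 11462 candidate genes, Vegfc and Rnase4 lay closest to Sox9 (0.0252 and 0.0295), Akna and Prpf39 to Lpl (0.0140 and 0.0172), Tshz3 and Fas to Fabp4 (0.0231 and 0.0239), and Akr1c14 and Pde4d to Runx2 (0.0126 and 0.0180). Within a difference of 0.1 there were 27 genes for Sox9, 338 for Lpl, 113 for Fabp4 and 138 for Runx2. With 4 arrays in 2 groups, this likeness is mainly a likeness in fold change. The counts therefore mainly describe how many genes changed to a like degree.

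**Figure D4:**
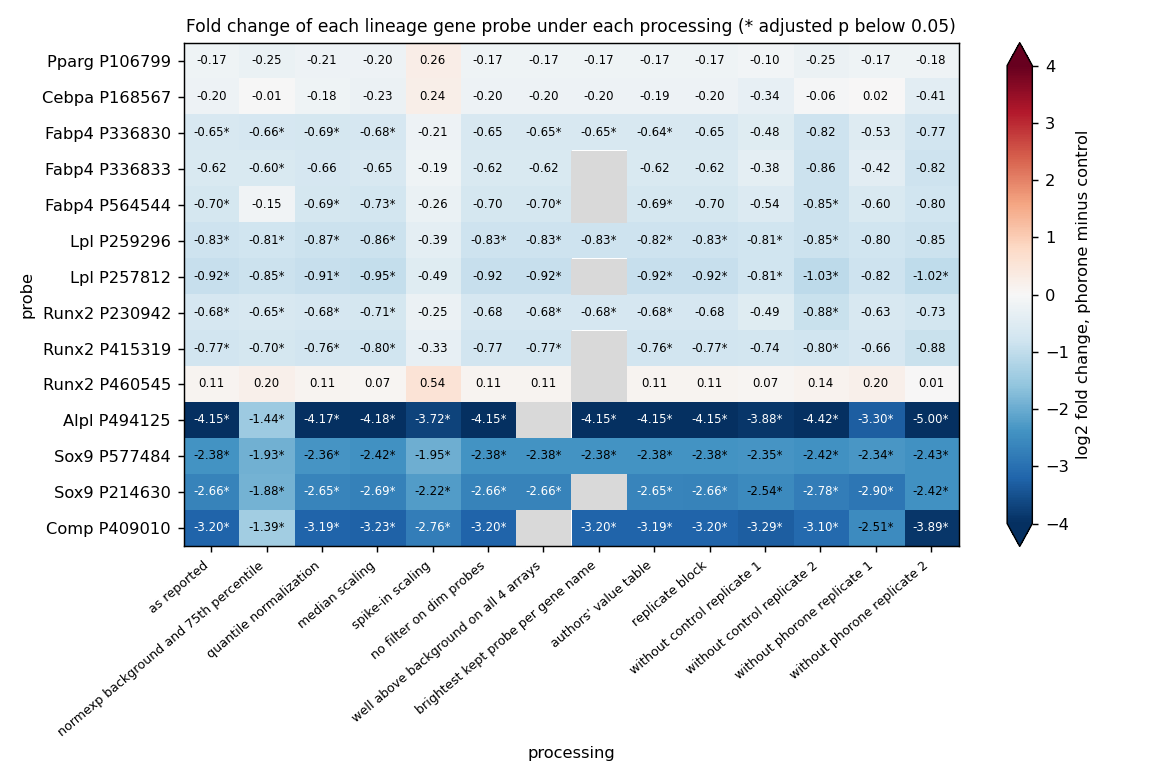
Log2 fold change, phorone minus control, of the 14 tested probes (rows) as reported and under 13 other settings (columns), with an asterisk where the limma adjusted p was below 0.05 and grey where the alternative did not test the probe. Both Sox9 probes carry an asterisk wherever they were tested, the values of Alpl and Comp rest in part on signals not well above background, and the Lpl, Fabp4 and Runx2 probes lose it under spike-in scaling.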

How the data were processed

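Intensity was deposited as the scanner output of 1-colour arrays. Per the file headers, version 10.7.3.1 of Agilent Feature Extraction made the processed signal with spatial and multiplicative detrending and with surrogates for very dim spots. The authors' deposited log2 value table equalled the log2 processed signal minus 1 number per array, and its column medians were -4.37 and -4.30 (phorone), -4.39 and -4.35 (control).

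Each array's 75th percentile over 61657 spots outside the controls was subtracted from the log2 processed signal. Outlier spots were left out (111 probes lost) and spots of a probe averaged. Groups were compared probe by probe with limma 3.58.1 in R 4.3.3 (2 residual and 2.91 prior degrees of freedom), tested on simulated data. A change is phorone minus control. A gene dim on both arrays of 1 group has a bound: the brighter group's mean against, per array, the higher of its own value and the lowest value well above background. RefSeq names (GRCm38.p6) matched 28136 of 40628 gene probes (69.3%).

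From each list, up to 4 called genes each way and up to 2 detected in 1 group were named. The 10 genes and the lists were chosen with earlier results of these data known. Replicate differences of the groups correlated with r = -0.03 across probes. This gave no sign of pairing by equal numbers, though 2 arrays in each group cannot exclude it. Alternatives covered background correction, scaling, filters, probe choice, the value table, a replicate block and leaving out each array.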

Additional observations from a re-analysis of the deposited data

How the results depend on the processing

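Called probes numbered 12081 among all tested, and 9 of 13 lineage probes under their own name were lower. Over the array left out, the first count ran from 5871 to 10316 and the second from 3 to 9, where the 9 without control replicate 2 are 8 of the 13 and the newly tested Sox9 P451606, and 0 lineage probes were higher each time. With no filter on dim probes 5886 and 5 (4 of the 13 and P451606) were called, and under spike-in scaling 6823 and 3. Lower lineage probes numbered 5 with the brightest probe per gene name, where 7 were tested, and 6 with the replicate block, with which 10250 of all probes were called. With the block Runx2 P230942, Fabp4 P336830 and Fabp4 P564544 were not called (limma adjusted p = 0.0579, 0.0744 and 0.0553). Adding the Alpl probe gave 10. Chosen after seeing the data, spike-in scaling with a control array left out gave 18294 called probes, 3 lower and 1 higher lineage probe (Runx2 P460545, 0.83) without control replicate 1, and 7774, 4 (3 of the 13 and P451606) and 0 without control replicate 2. Under spike-in scaling 26.1% of all calls were lower, against 44.9% as reported. Reversed signs came from spike-in scaling for Pparg (0.26) and Cebpa (0.24), from leaving out phorone replicate 1 for Cebpa (0.015, and -0.41 without phorone replicate 2), and from spike-in scaling without control replicate 1 for Pparg (0.66), Cebpa (0.42), Fabp4 (0.28, 0.38 and 0.21) and Runx2 (0.27 and 0.023). That scaling without control replicate 2 gave 0.051 for Cebpa. Quantile normalization, median scaling and the authors' value table changed no call among the 14 probes, and Sox9 P577484 and P214630 were called lower under every alternative that tested them. Dim signals limit Sp7, Myod1, Alpl and Comp in phorone cells.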
